A study of Mus musculus with 20 samples.

Results

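The urea cycle of mouse liver was followed through the mRNAs of its 5 enzymes, Cps1, Otc, Ass1, Asl and Arg1, in the livers of 20 mice. The genes were chosen by name, every probe whose single symbol is one of them being taken, and Ass1 and Asl had been selected on their differences between mice given control siRNAs and mice given vehicle or Ppara siRNAs. All 5 were on the array, each with 1 probe, among 15252 genes and 18790 probes with a single gene symbol (23493 probes in all). Which probe belongs to which gene is taken from the annotation of the array, and the Entrez identifier of all 5 is that of the same symbol in RefSeq.

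All mice were injected in the tail vein by the hydrodynamic method, in which a large volume is forced in within seconds and carries nucleic acid into the liver, and livers were taken 48 h later. The vehicle group received Ringer's solution alone; the GL3 and SEAP-M groups received 40 µg of a control siRNA, against the reporter genes GL3 and secreted alkaline phosphatase (SEAP), and the PPARa and PPARa-M groups received 40 µg of an siRNA against Ppara, the nuclear receptor that turns on fatty acid oxidation genes in fasting. Each group has 4 mice, and injection, carrier solution and volume are common to all 5 groups, so that no uninjected liver is among them. The letter M is not explained in the labels, and strain, sex and age are not given in the sources used here. RNA of each liver was hybridized together with pooled RNA of 4 vehicle mice. A gene is thus given as a log10 ratio between mouse and pool, taken to be mouse over pool from the order of the names and dyes in the labels and from Ppara being lower in the PPARa-M mice. That direction is likely rather than stated, and the base of the logarithm is not named with the values. A ratio holds no level, so that the 5 enzymes cannot be ranked against each other and the presence of hepatocyte markers cannot be checked. Whole livers were measured, and fewer cells of a type and less RNA per cell cannot be told apart in them.

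The urea cycle turns the ammonia set free by amino acid breakdown into urea, and the complete cycle runs in hepatocytes, mainly those around the portal vein. Cps1 and Otc work inside the mitochondrion, where Cps1 makes carbamoyl phosphate and Otc joins it to ornithine to give citrulline. In the cytosol Ass1 joins citrulline to aspartate, Asl splits the product into arginine and fumarate, and Arg1 releases urea from arginine and returns ornithine. Glucagon, glucocorticoids and the protein content of the diet are the known controls of these genes' transcription in liver.

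In the mouse assembly GRCm38.p6, which was used for positions only, Cps1 lies at chr1:67122426-67231267, Otc at chrX:10252230-10321024, Ass1 at chr2:31470270-31520670, Asl at chr5:130011258-130024381 and Arg1 at chr10:24915207-24927470. RefSeq promoter windows of 250 bases before and 50 bases after the start site were at hand for Ass1, the member with the widest gap between vehicle mice and all siRNA groups, and for Otc, whose groups overlapped throughout. Only bases upstream of the earliest annotated start are printed, on the plus strand, 5′ to 3′, with matches to the searched motifs in capitals.
Ass1, chr2:31470020-31470269: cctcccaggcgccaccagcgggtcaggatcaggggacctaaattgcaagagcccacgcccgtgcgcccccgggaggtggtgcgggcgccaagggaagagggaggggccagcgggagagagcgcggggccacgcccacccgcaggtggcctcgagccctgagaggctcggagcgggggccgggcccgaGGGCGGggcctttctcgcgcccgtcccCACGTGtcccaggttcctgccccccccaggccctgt
Otc, chrX:10252055-10252229: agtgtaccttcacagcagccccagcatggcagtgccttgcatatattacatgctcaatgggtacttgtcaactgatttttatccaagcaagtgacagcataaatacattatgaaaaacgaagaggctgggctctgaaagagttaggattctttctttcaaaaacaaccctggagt
In the Ass1 window a GC box, GGGCGG, begins at -63 from the start site and an E-box, CACGTG, at -36. Of 32851 promoter windows of the same length, searched on both strands, 35.7% held GGGCGG and 7.15% held CACGTG. The letters TATAAA (in 13.6% of all windows), CCAAT (37.4%), TGACG (20.8%), AGGTCA (16.3%) and TGTTTAC (3.65%) were in neither window, and GGGCGG and CACGTG were not in that of Otc. No motif overlapped another in the Ass1 window.

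Ppara itself was read by 4 probes, whose mean is given here for every mouse. Since the direction of the ratios was in part taken from it, it does not check that direction, only how far the groups stand apart. Its log10 ratios were 0.0653, -0.0323, -0.0089 and 0.0454 in vehicle mice A to D, 0.0114, 0.061, 0.0014 and 0.0447 with GL3, and 0.242, -0.0468, 0.0374 and -0.0204 with SEAP-M siRNA. With PPARa siRNA they were 0.0258, -0.126, -0.0876 and -0.106, and with PPARa-M siRNA -0.177, -0.317, -0.178 and -0.186. All 4 PPARa-M mice lay below every other mouse, whereas PPARa mouse A lay within the range of the vehicle mice. The level was 54% of SEAP-M (log2 difference -0.89 ± 0.17, SE, adjusted p = 0.0103) with PPARa-M siRNA and 79% of GL3 (-0.34 ± 0.17, adjusted p = 1) with PPARa siRNA, by limma over all genes.

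Cps1, the enzyme that commits ammonia to the cycle, stayed within a narrow band. Its log10 ratios were 0.0064, 0.0348, 0.056 and -0.0332 in vehicle mice A to D, 0.0241, 0.0355, 0.0072 and 0.0098 with GL3, and 0.0152, -0.0068, 0.0004 and 0.0155 with SEAP-M siRNA. They were 0.0174, 0.0251, 0.0046 and 0.0053 with PPARa siRNA and 0.0474, 0.0805, 0.087 and 0.0031 with PPARa-M siRNA. The groups overlapped, with 3 PPARa-M mice in the upper part of the range. The mean with PPARa-M siRNA, 0.0545 ± 0.0384 (SD, n = 4), was 110% of that with PPARa siRNA, 0.0131 ± 0.0099 (log2 difference 0.14 ± 0.067, SE, adjusted p = 0.213).

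Otc, which makes citrulline, varied more between mice of the same group than any other member, with a pooled SD of 0.0876 on the log10 scale against 0.0259 for Cps1, 0.0424 for Ass1, 0.0375 for Asl and 0.0541 for Arg1. The 4 vehicle mice had ratios of 0.0883, -0.0261, -0.115 and 0.159, which span all but 4 of the siRNA mice. Ratios were 0.066, -0.0904, -0.018 and -0.0536 with GL3 and -0.0417, -0.133, -0.0179 and -0.1 with SEAP-M siRNA. They were -0.0143, 0.0027, 0.0325 and -0.156 with PPARa siRNA, and -0.117, -0.181, 0.0116 and 0.0138 with PPARa-M siRNA. With this spread the 95% interval of the difference between PPARa-M siRNA and vehicle reached from -0.72 to 0.09 on the log2 scale (adjusted p = 0.344), which holds both a fall and no change.

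Ass1, which makes argininosuccinate from citrulline and aspartate, was higher in the vehicle mice than in all others. The vehicle mice A to D had log10 ratios of 0.109, 0.15, 0.114 and 0.159. The GL3 mice had -0.0297, -0.133, -0.0443 and -0.0982, and the SEAP-M mice -0.0911, -0.0586, -0.0667 and -0.0833. The PPARa mice had -0.0716, -0.0417, -0.0683 and -0.103, and the PPARa-M mice 0.0005, -0.0904, 0.0612 and 0.0641. The lowest vehicle mouse lay above the highest of the 16 siRNA mice. The groups GL3 (-0.0762 ± 0.0478, SD, n = 4), SEAP-M (-0.0749 ± 0.0149) and PPARa (-0.0711 ± 0.025) had means closer than their SDs, and PPARa-M (0.0089 ± 0.0724) stood between them and vehicle (0.133 ± 0.0249) with mouse B at the level of the other siRNA groups. In the order GL3, SEAP-M, PPARa, PPARa-M, vehicle, only the last neighbours did not overlap. Ass1 was chosen on differences of this kind, and the share of all genes that separate groups in this way is not given here.

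Asl, the next enzyme, followed another order. Its log10 ratios were -0.0217, 0.0312, -0.0458 and -0.0027 in the vehicle mice, -0.0563, -0.129, -0.0597 and -0.129 with GL3, and -0.114, -0.083, -0.0853 and -0.0557 with SEAP-M siRNA. They were -0.0395, -0.037, -0.0415 and 0.0521 with PPARa siRNA and 0.0434, 0.129, 0.127 and 0.116 with PPARa-M siRNA. Every mouse given a control siRNA lay below every vehicle and every Ppara siRNA mouse, and every PPARa-M mouse lay above every vehicle mouse. Means rose from GL3 (-0.0933 ± 0.0408, SD, n = 4) and SEAP-M (-0.0845 ± 0.0239) over PPARa (-0.0165 ± 0.0458) and vehicle (-0.0098 ± 0.0325) to PPARa-M (0.104 ± 0.0405). In this order GL3 and SEAP-M, and PPARa and vehicle, were closer than the pooled SD of 0.0375, while the steps from SEAP-M to PPARa (0.068) and from vehicle to PPARa-M (0.113) separated groups without overlap. Asl too was chosen on differences of this kind, and the share of all genes that separate in this way is not given here. Of all genes 23.3% had an unadjusted p under 0.05 by limma with PPARa-M siRNA against vehicle.

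Arg1, which releases urea, was below the pool in 19 of 20 mice, and its groups overlapped. Ratios were -0.0903, -0.102, -0.11 and -0.133 in the vehicle mice, -0.0629, -0.121, -0.134 and -0.0967 with GL3, and -0.0621, -0.129, -0.155 and -0.0387 with SEAP-M siRNA. They were -0.153, -0.0724, -0.105 and -0.0949 with PPARa siRNA, and -0.109, 0.0807, -0.1 and -0.121 with PPARa-M siRNA. Mouse B of the PPARa-M group was the only one above 0, and it is the mouse with the lowest Ppara and the lowest Ass1 of its group.

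**Figure D1:**
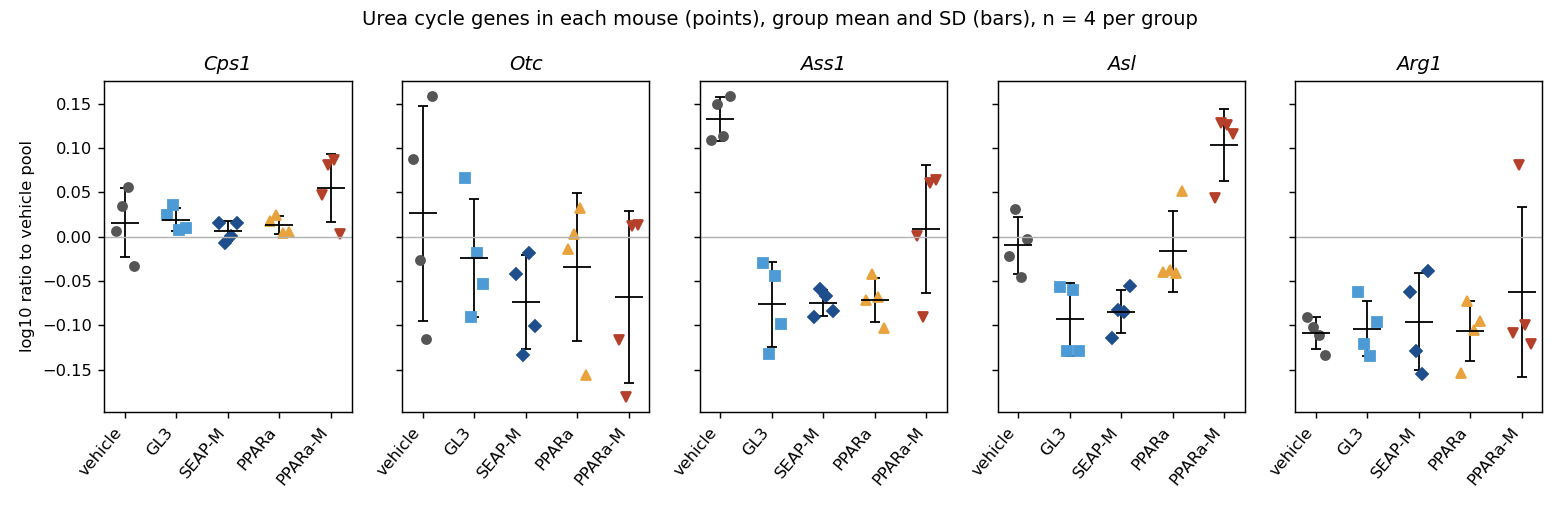
Log10 ratio of each mouse to the vehicle pool (vertical axis) for the 5 urea cycle genes, by group (horizontal axis); points are mice, bars are the group mean and SD, n = 4. The 4 vehicle mice lie between 0.109 and 0.159 for Ass1, above all siRNA mice, and the PPARa-M mice lie between 0.0434 and 0.129 for Asl.

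The ratios of the vehicle mice are also ratios to vehicle RNA, that of the pool, and 2 of the members stood away from 0 there. The mean of Ass1 in vehicle mice, 0.133, was the 14th highest of 15252 genes, where the SD over genes was 0.0229. At a margin of 0.1, chosen after the values were seen, Ass1 was the single gene with all 4 vehicle mice above the pool and 0 genes had all 4 below it. At a margin of 0.05, 18 genes had all 4 above and 99 had all 4 below. Arg1, at -0.109, was the 32nd lowest. The labels do not say whether the pool was made from these same mice. An offset of a probe that all arrays share cancels in a difference between groups, but a departure of the 4 vehicle mice from vehicle RNA in general would not, and in the comparisons of Ass1 with vehicle it cannot be told apart from a difference made by the siRNAs.

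The comparisons of the control siRNAs with vehicle and of the Ppara siRNAs with the control siRNAs chose Ass1 and Asl, and the members are therefore described there without a test. Relative to vehicle, Ass1 with control siRNA was at 61.9% (log2 difference -0.69 ± 0.085, SE), the 17th lowest of all genes, and Asl was at 83.3% (-0.26 ± 0.077). Each control siRNA gave these values by itself, with Ass1 at 61.8% with GL3 and 62% with SEAP-M and Asl at 82.5% and 84.2%. Cps1 was at 99.2%, Arg1 at 102% and Otc at 84.1% (-0.25 ± 0.17). Over all 15252 genes 0.00656% passed an adjusted p of 0.05 in this comparison. Ass1 and Asl were chosen on this contrast, so that the share is no background for them and no call of theirs counts as a result.

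Relative to the control siRNAs, Asl with Ppara siRNA was at 136% (0.44 ± 0.063), the 97th highest of all genes, and Ass1 at 111% (0.15 ± 0.070). By siRNA pair, Asl was at 154% and Ass1 at 121% with PPARa-M against SEAP-M siRNA, and at 119% and 101% with PPARa against GL3 siRNA. Cps1 was at 112% and 98.6%, Otc at 101% and 97.8%, and Arg1 at 108% and 99.4% in these pairs. Of all genes 0.216% passed in the comparison of both Ppara with both control siRNAs.

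The comparison of the Ppara siRNAs with vehicle is the sum of the other 2, so that Ass1 and Asl are described without a test there as well. Ass1 was at 62.5% of vehicle with PPARa siRNA (log2 difference -0.68 ± 0.099, SE) and at 75.2% with PPARa-M siRNA (-0.41 ± 0.099). Asl was at 98.5% with PPARa siRNA (-0.02 ± 0.089) and at 130% with PPARa-M siRNA (0.38 ± 0.089). None of Cps1, Otc and Arg1, which did not enter the choice, passed the test against vehicle with either siRNA or both, with adjusted p of 0.263 or more by limma, and none had an unadjusted p under 0.05, the smallest being 0.0739. The share of all genes that passed was 0.0787% with PPARa siRNA, 7.28% with PPARa-M siRNA and 0.125% with both together. All comparisons with vehicle share the same 4 vehicle mice.

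**Figure D2:**
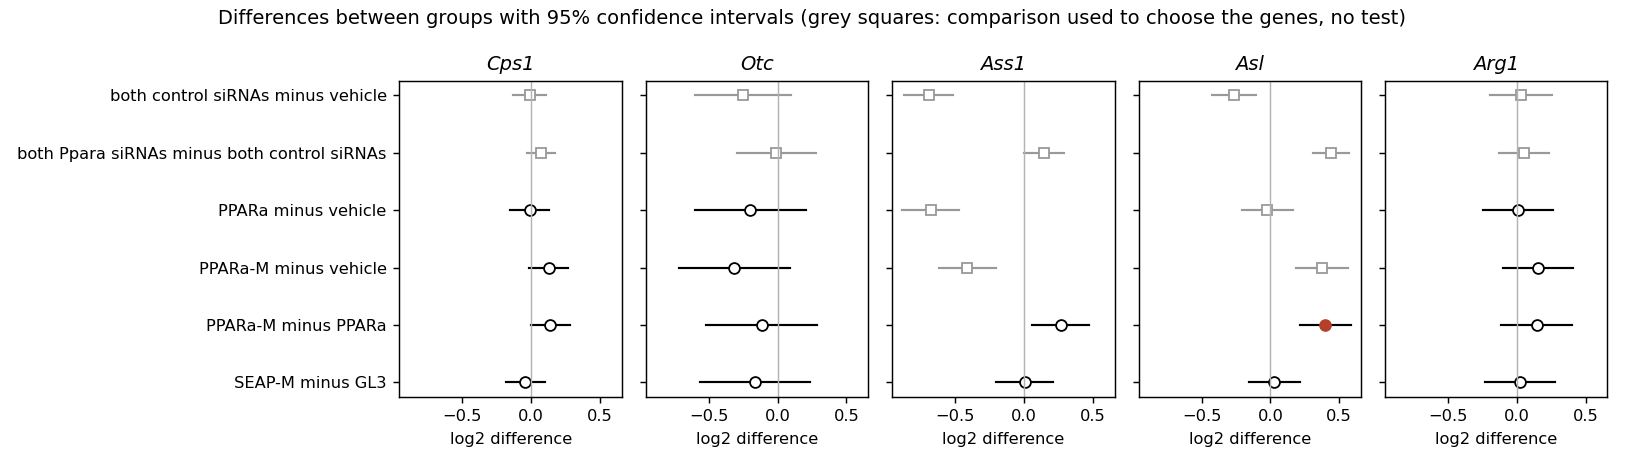
Log2 difference between groups (horizontal axis) with its 95% confidence interval for each member in 6 comparisons; grey squares mark comparisons that took part in the choice of the genes and have no test, circles are tested, and a filled circle has an adjusted p under 0.05. The intervals of the grey squares take no account of that choice and are no test. Asl in PPARa-M minus PPARa (0.40) is the filled circle.

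Asl was higher with PPARa-M than with PPARa siRNA, a comparison that the choice of the genes had not used directly. The same mice did take part in the choice, where Asl was at 154% of SEAP-M with PPARa-M and 119% of GL3 with PPARa siRNA. The test may therefore not be free of the choice. Between the Ppara siRNAs Asl was at 132% (log2 difference 0.40 ± 0.089, SE, 95% interval 0.21 to 0.59, adjusted p = 0.00892 by limma), with 3 of 4 PPARa-M mice above every PPARa mouse. The share of all genes that passed in this comparison was 9.02%, 730 higher and 645 lower, and 1 of 5 members did. Ass1 was at 120% (0.27 ± 0.099, 0.06 to 0.47), which did not pass over all genes (adjusted p = 0.101) but did when PPARa-M mouse B was left out (0.38, adjusted p = 0.0118). Cps1 (110%), Arg1 (111%, adjusted p = 0.494) and Otc (92.4%, adjusted p = 0.76) did not pass. The call of Asl was lost when arrays were quantile normalized (0.33, adjusted p = 0.113), when arrays were scaled to the same interquartile range (0.33, adjusted p = 0.0909) and when only those 8 mice were fitted (adjusted p = 0.0753).

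Between the control siRNAs no member passed the test. SEAP-M minus GL3 was 0.00 (95% interval -0.20 to 0.21) for Ass1 and 0.03 (-0.16 to 0.22) for Asl on the log2 scale, -0.04 for Cps1, 0.02 for Arg1 and -0.16 (-0.57 to 0.24) for Otc, with adjusted p of 0.83 or more and unadjusted p of 0.404 or more. Of all genes 0% passed in this comparison by limma, while 1693 had an unadjusted p under 0.05. With each Ppara siRNA set against its control siRNA, the difference between the PPARa-M and the PPARa effect was 0.37 ± 0.13 (SE, 95% interval 0.11 to 0.63) for Asl, an unadjusted p of 0.00881 that became 0.208 over all genes. It was 0.26 (-0.03 to 0.55, adjusted p = 0.46) for Ass1 and 0.18 (adjusted p = 0.453) for Cps1. In that comparison 0.879% of all genes passed and 0 of the 5 members. It is built from differences between Ppara and control siRNAs, on which Ass1 and Asl were chosen. For these genes its intervals and p-values may therefore not be free of the choice.

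**Figure D3:**
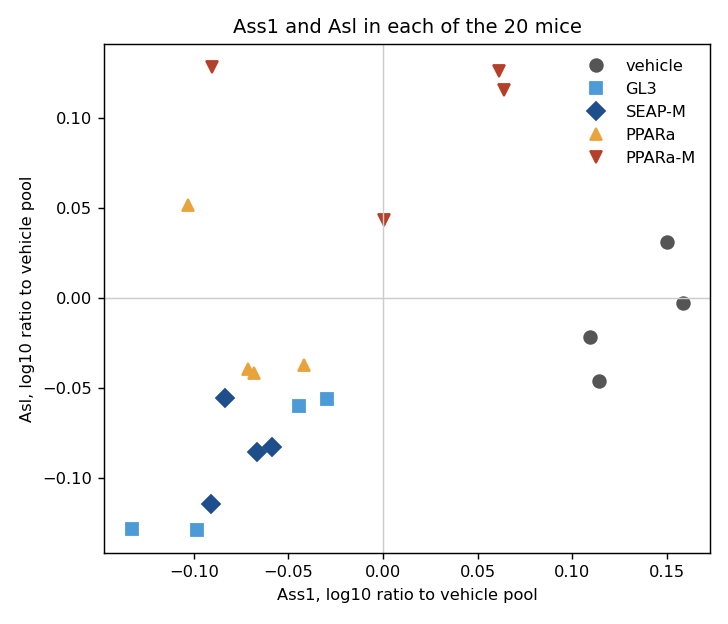
Log10 ratio to the vehicle pool of Ass1 (horizontal axis) and Asl (vertical axis) in each of the 20 mice, by group. Control siRNA mice lie low in both, vehicle mice lie high in Ass1 and near 0 in Asl, and PPARa-M mice lie high in Asl with Ass1 between -0.0904 and 0.0641.

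Within groups, where the differences that chose the genes are removed, the members showed no covariation that passed correction. Deviations from the group mean were compared for 15 pairs, the 10 pairs of members and each member with Ppara, by a two-sided permutation test within groups. The strongest was Otc with Ass1, the enzymes on either side of citrulline (Pearson r = 0.665, p = 0.00336, adjusted p = 0.0504; Spearman rho = 0.666, p = 0.00895, adjusted p = 0.134; 20 mice). It was 0.676 without the 2 mice farthest out in Otc, vehicle C and PPARa D, 0.864 within the 8 Ppara siRNA mice (exact p = 0.00868, adjusted p = 0.0651) and 0.469 within the 12 others (exact p = 0.139). Arg1 and Ppara had r = -0.892 within the same 8 mice, with the same exact p and adjusted p. Their r was 0.217 within the 12 others and -0.325 over all 20 mice. Ass1 and Asl, consecutive enzymes, had r = 0.198 (rho = 0.338; permutation p = 0.501 and 0.217, adjusted p = 0.683 and 0.407), 0.33 without PPARa-M B and GL3 B, with r of 0.796 within the 12 vehicle and control siRNA mice (exact p = 0.0314, adjusted p = 0.199, 0.731 without GL3 A and B) and -0.209 within the 8 Ppara siRNA mice. Asl and Ppara had r = -0.449 (rho = -0.511; permutation p = 0.037 and 0.026, adjusted p = 0.277 and 0.195), and -0.45 without PPARa D and PPARa-M A.

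Over all 20 mice the genes whose pattern was most like that of Ass1, by Pearson r of gene means and as a description, were Gnmt (0.761), Slc25a3 (0.751), Emcn (0.721), Ndufv1 (0.721) and Bhmt (0.709), and the most opposite were Kmt5c (-0.735), Lpcat2b (-0.726) and Mrrf (-0.721). Gnmt and Bhmt handle methyl groups in methionine metabolism, Slc25a3 carries phosphate into mitochondria and Ndufv1 is a subunit of complex I. For Asl they were 1700067K01Rik (0.889), Misp3 (0.873), Gstt3 (0.867), Acnat2 (0.865) and Agt (0.863), and on the opposite side F11 (-0.885), F2r (-0.871) and Vnn1 (-0.862), a known target of the receptor Ppara. The points share arrays and the pool, and these r include the differences between groups. With group means removed they were between 0.426 and 0.647 on the like side and between -0.436 and -0.727 on the opposite side. These values are affected by the choice too, since the genes were picked on r over the same mice.

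Genes around the cycle were read from lists that name its partners (25 of 29 genes measured), arginine and polyamine use (16 of 19), amino acid catabolism (37 of 45), transcriptional regulators of the cycle (22 of 24) and the response to fasting, glucagon and glucocorticoids (15 of 18), in all 114 different genes. None of the 114 passed by limma in PPARa siRNA against vehicle, in the control siRNAs against vehicle, in both Ppara against both control siRNAs or between the control siRNAs, where 14, 6, 20 and 22 had an unadjusted p under 0.05, which 5.55%, 2.48%, 11.3% and 11.1% of all genes had. With array weights 1 passed in the control siRNAs against vehicle and 2 in the Ppara against the control siRNAs. With PPARa-M siRNA against vehicle 3 were higher and 9 lower, against 7.28% of all genes called. With PPARa-M against PPARa siRNA 6 were higher and 7 lower, against 9.02%. With PPARa-M against SEAP-M siRNA 0 were higher and 2 lower by limma, against 2.54%. These were Prodh2 (-0.46, adjusted p = 0.0278) and Aldh4a1 (-0.43, adjusted p = 0.0337).

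Among the partners, 3 fell with PPARa-M siRNA relative to vehicle and 0 rose, and the median of the 25 was -0.15 on the log2 scale beside -0.02 for all genes. Mdh1, cytosolic malate dehydrogenase, which takes up malate made from the fumarate that Asl releases, fell by 0.53 (SE 0.099, adjusted p = 0.00644). Slc25a13, the aspartate and glutamate carrier that brings mitochondrial aspartate to Ass1, fell by 0.43 (SE 0.086, adjusted p = 0.00971). Aqp9, a channel for glycerol and urea, fell by 0.66 (SE 0.15, adjusted p = 0.0157). Mdh1 was also at -0.24 with GL3, -0.25 with SEAP-M and -0.22 with PPARa siRNA, where it did not pass, while Aqp9 was at 0.13, -0.11 and -0.04. Nags, chosen after its values were seen because it makes the activator of Cps1, was at 0.13 with PPARa and 0.12 with PPARa-M siRNA (adjusted p = 0.992 and 0.392).

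**Figure D4:**
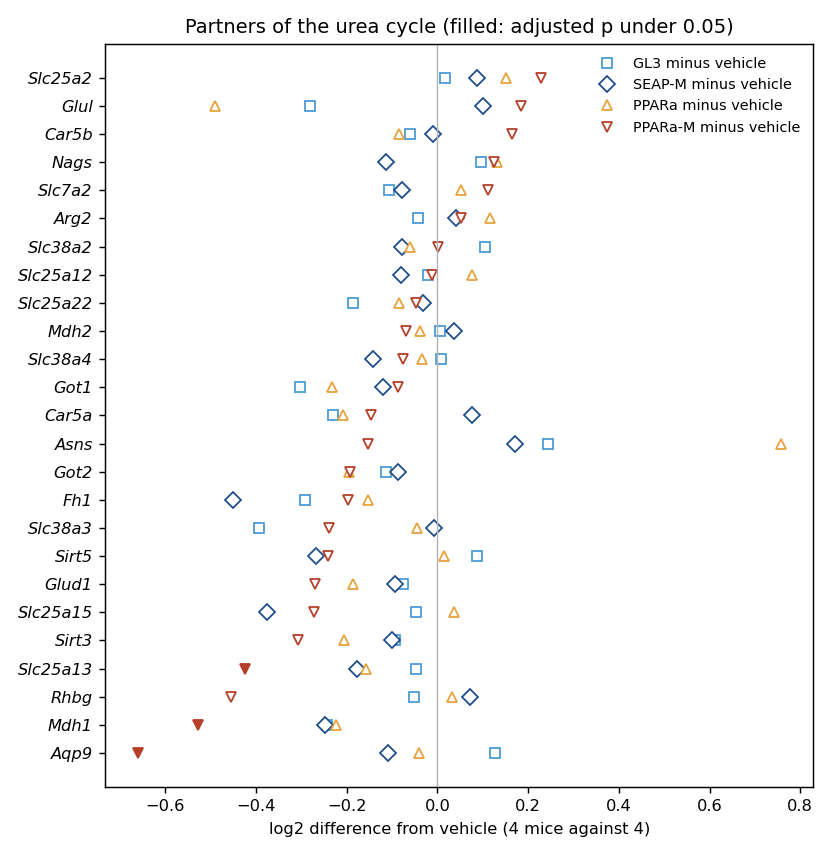
Log2 difference from vehicle (horizontal axis, 4 mice against 4) of the 25 measured partner genes of the urea cycle for each siRNA (symbols), ordered by the PPARa-M difference; filled symbols have an adjusted p under 0.05. The filled symbols are those of Aqp9, Mdh1 and Slc25a13 with PPARa-M siRNA.

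Between the Ppara siRNAs the partners that passed were Aqp9 (-0.62, adjusted p = 0.0136), Asns, asparagine synthetase (-0.91, adjusted p = 0.0268), Glul, the glutamine synthetase of the hepatocytes around the central vein (0.68, adjusted p = 0.0328), and Rhbg, an ammonium transporter of the same cells (-0.49, adjusted p = 0.0352). Glul and Rhbg, both on the list of pericentral hepatocyte markers, went in opposite directions. Asns was at 0.76 and Glul at -0.49 with PPARa siRNA against vehicle, neither passing (smallest adjusted p = 0.598 among the partners there).

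Amino acid breakdown, the source of the nitrogen, had 5 of 37 genes lower and 0 higher with PPARa-M siRNA against vehicle (median -0.07), where 7.28% of all genes passed, 513 higher and 597 lower. The 4 with the smallest p were Pccb (-0.32, adjusted p = 0.021) and Pcca (-0.29, adjusted p = 0.0378), the subunits of propionyl-CoA carboxylase, and Aldh4a1 (-0.38, adjusted p = 0.0328) and Prodh2 (-0.39, adjusted p = 0.0363), which act in proline and hydroxyproline breakdown. Against PPARa siRNA, Pccb (-0.32, adjusted p = 0.0137) and Prodh2 (-0.37, adjusted p = 0.0369) were lower and Bcat2 (0.34, adjusted p = 0.0322), which starts the breakdown of branched-chain amino acids, was higher. Prodh2 was also the single list gene that passed in the contrast of PPARa-M over SEAP-M with PPARa over GL3 (-0.68, adjusted p = 0.0389). In the control siRNAs against vehicle the smallest p of the lists was that of Gnmt (-0.59 ± 0.11, SE; unadjusted p = 2.77e-05, adjusted p = 0.141), followed by Fh1, the fumarase (-0.37 ± 0.088, adjusted p = 0.939). Of the 16 genes of arginine and polyamine use, Agmat, agmatinase, was lower with PPARa-M siRNA against vehicle (-0.23, adjusted p = 0.0416) and against PPARa siRNA (-0.26, adjusted p = 0.0184).

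Among 22 regulators 3 rose and 0 fell with PPARa-M siRNA against vehicle, namely Crtc2, the coactivator through which glucagon acts on CREB (0.36, adjusted p = 0.0104), and the NF-Y subunits Nfyb (0.61, adjusted p = 0.0185) and Nfyc (0.33, adjusted p = 0.0289). Against PPARa siRNA, Foxo1 (0.44, adjusted p = 0.00865), Crtc2 (0.31, adjusted p = 0.0135) and Nfyc (0.29, adjusted p = 0.0379) were higher, and Cebpa, a factor that liver needs for its urea cycle genes, was lower (-0.46, adjusted p = 0.00535). None of 15 genes of the fasting and glucocorticoid list passed with PPARa-M siRNA against vehicle, although 13 were positive with a median of 0.20, and the smallest p were those of Angptl4 (-1.13, adjusted p = 0.0759), Gadd45b (0.91, adjusted p = 0.0868), Atf3 (0.57, adjusted p = 0.123) and Pck1 (0.84, adjusted p = 0.151). Tsc22d3, a glucocorticoid target, was higher with PPARa-M than with PPARa siRNA (0.65, adjusted p = 0.0385). With PPARa siRNA against vehicle, Tsc22d3 was at -0.42, Foxo1 at -0.14 and Cebpa at 0.21, while Crtc2 was at 0.05 and Nfyc at 0.03, none passing.

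These calls of list genes changed with the scaling and when single mice were left out. The 12 calls of PPARa-M siRNA against vehicle became 0 with quantile normalization, with a common interquartile range or with only those 8 mice, and 6, 3 and 7 when vehicle A, vehicle D or PPARa-M B was left out. The 13 calls between the Ppara siRNAs became 1 under each of those 3 settings, and 8 when PPARa C or PPARa-M D was left out.

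Markers of other cells moved with some groups, and their part in the results above was not tested. With PPARa siRNA against vehicle, 7 of 7 neutrophil markers were positive with a median of 1.36 on the log2 scale, 0 passing and 5 with an unadjusted p under 0.05 (5.55% of all genes), and their mean log10 ratio per mouse ran from -0.057 to 0.87, against -0.088 to 0.052 in the vehicle and -0.1 to -0.037 in the PPARa-M mice. With PPARa-M siRNA, 4 of 4 erythroid markers were negative against vehicle (median -0.61), of which Alas2 passed (-0.63, adjusted p = 0.0268), with a mean per mouse of -0.252 to -0.13 against -0.107 to 0.045 in vehicle. All 5 periportal hepatocyte markers were negative as well (median -0.17, 0 passing), with a mean per mouse of -0.068 to -0.035 against -0.028 to 0.076, while Asl was higher. Of 6 general hepatocyte markers 5 were positive, and Apob passed (0.62, adjusted p = 0.0203). Of 5 cholangiocyte markers 4 were positive (median 0.30, 0 passing), with a mean per mouse of 0.049 to 0.129 against -0.041 to 0.048 in the vehicle mice. For these, the erythroid and the periportal means, the share of all genes that separate mice in this way is not given here. In this comparison 23.3% of all genes had an unadjusted p under 0.05 by limma. With PPARa-M against PPARa siRNA, where Asl was tested, all 7 neutrophil markers were negative (median -1.22, Ngp passing), as were all 4 erythroid (median -0.68, Alas2 passing) and all 5 periportal markers (median -0.16, 0 passing), whereas 3 of 5 cholangiocyte markers were positive (median 0.03, Epcam passing).

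In the comparisons on which Ass1 and Asl were chosen no marker passed. With the control siRNAs against vehicle 5 of 6 macrophage markers were positive (median 0.18) and 6 of 7 stellate cell markers (median 0.10), with Colec11 at 0.57 and Reln at 0.34 (unadjusted p = 0.0164 and 0.0198), while all 5 cholangiocyte markers were negative (median -0.08) and the periportal list had a median of -0.06. The 2 control siRNAs differed in this. Colec11 was at 0.93 with SEAP-M and 0.21 with GL3 siRNA, and Reln at 0.495 and 0.178. Cholangiocyte markers ran from -0.219 to -0.052 with GL3 and from -0.084 to 0.034 with SEAP-M siRNA. With the Ppara against the control siRNAs all 5 cholangiocyte markers were positive (median 0.28), with Krt19 at 0.28, Sox9 at 0.34 and Krt7 at 0.50 (adjusted p = 0.157, 0.193 and 0.215). Of 7 stellate cell markers 5 were negative there (median -0.30), with Colec11 at -0.62 and Reln at -0.36 (adjusted p = 0.158 and 0.199), as were 5 of 7 pericentral markers (median -0.22), with Cyp2e1 at -0.34, Lect2 at -0.33 and Cyp1a2 at -0.34 (adjusted p = 0.208, 0.263 and 0.354), and 5 of 6 macrophage markers (median -0.26). Neutrophil markers were positive in 6 of 7 (median 0.76). Their mean log10 ratio was 0.295 with PPARa against 0.025 with GL3 siRNA, and -0.073 with PPARa-M against -0.115 with SEAP-M siRNA.

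The arrays themselves differed in spread, with medians of -0.0093 to 0.006 and interquartile ranges of 0.0442 to 0.124 on the log10 scale over all probes. By group these ranges were 0.0735 to 0.124 with PPARa-M, 0.0569 to 0.079 with PPARa and 0.052 to 0.0852 with SEAP-M siRNA. They were 0.0442 to 0.0594 with GL3 siRNA and 0.0459 to 0.0606 in vehicle. The comparisons in which Asl and list genes passed all hold the PPARa-M group. How far its wider arrays enter these calls was not tested apart from the rescaled fits. None of the values of the members was among the 40 at the limits of the table, and no array was found to be deposited more than a single time.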

How the data were processed

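Livers of 20 mice (5 groups of 4) were measured against a pool of 4 vehicle mice on 2-colour custom arrays with a single dye orientation. The authors deposited 1 log10 ratio per probe and mouse; their background correction and normalization are not given in the sources used here, and no signal intensities were used, so that their platform's error model could not be repeated and the number of arrays limits the precision. Ratios were used as deposited, converted to log2, averaged over the probes of a gene (15252 genes) and a linear model with a mean for each group over all 20 arrays was fitted in limma 3.58.1 (R 4.3.3), with Benjamini-Hochberg adjustment within each comparison (threshold 0.05). The limma step was tested on simulated data. Correlations used Python 3.11.15, numpy 2.4.6, scipy 1.17.1 and pandas 2.3.3, with 100000 resamples or all permutations, and figures matplotlib 3.10.9. The limma p-values set a difference against the spread between mice within groups, as 1 estimate shared by the 5 groups and moderated over genes. Those of the correlations come from permutation within groups.

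Members and gene lists were chosen with earlier results of these data known. Ass1 and Asl were selected on the comparisons of control siRNAs with vehicle and with Ppara siRNAs, and members have no test there. The Ppara siRNAs against vehicle had been planned as a test of all members; as the sum of those comparisons, it is given for Ass1 and Asl without a test. Genes named are the members, Ppara, up to 4 genes of a list with the smallest p among those called, or among all where none was, and the 5 most like and 3 least like genes of Ass1 and Asl; other names were chosen after their values were seen. Groups and replicate letters come from the labels. Alternatives were median-centring, quantile normalization, scaling to a common interquartile range, array weights, robust moderation, single probes, only the groups compared, a replicate block, a filter at 1.5-fold, a threshold of 0.01 and each mouse left out. The labels mention 8 vehicle profiles, of which 4 are analysed here.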

Additional observations from a re-analysis of the deposited data

Results flagged for a closer look

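In 30 groups of 4 mice (the 5 members and Ppara in each of 5 groups), 4 held a mouse far from the other 3, with a gap to its nearest neighbour that, over the range of the group, exceeded Dixon's 95% critical value. A threshold of this kind picks out about 1 in 20 groups by chance. PPARa mouse D had an Asl log10 ratio of 0.0521 where the other 3 were at -0.0415 to -0.037. PPARa-M mouse A had an Asl ratio of 0.0434, below the other 3 at 0.116 to 0.129. PPARa-M mouse B had an Arg1 ratio of 0.0807, the other 3 being at -0.121 to -0.1, and a Ppara ratio of -0.317, the others being at -0.186 to -0.177.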

How the results depend on the processing

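Over all results and settings 1601 values kept their direction and their side of the threshold or stayed within the replicate spread, 29 moved, 5 crossed the threshold and 0 reversed beyond that spread. Small differences did change sign within it, such as Otc between the Ppara siRNAs (-0.249 to 0.011) and Asl with PPARa siRNA against vehicle (-0.098 to 0.023). Quantile normalization gave Ass1 differences of -0.93 (control siRNAs against vehicle), -0.71, -0.86 and -0.57 (both Ppara siRNAs, PPARa and PPARa-M against vehicle), 0 members and 1 list gene called between the Ppara siRNAs, Asl at 0.33 there, and 0 list genes for PPARa-M against vehicle. A common interquartile range gave -0.85 for Ass1 with control siRNAs, the same 0, 1 and 0 calls, and Asl at 0.33. Fitting only the groups compared gave 0, 1 and 0 calls with Asl at 0.40. Array weights gave 2 members called between the Ppara siRNAs (Ass1 0.36, adjusted p = 0.0115), 23 list genes there, 1 with control siRNAs against vehicle and 2 with Ppara against control siRNAs. The filter at 1.5-fold, which left 4119 genes and Otc alone of the members, gave 5 list genes for PPARa-M against vehicle and 6 between the Ppara siRNAs, and a threshold of 0.01 gave 2 and 2.

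Leaving out each mouse gave 1 to 2 members called between the Ppara siRNAs (Ass1 from 0.20 to 0.38), 3 to 15 list genes for PPARa-M against vehicle, 8 to 14 between the Ppara siRNAs and 0 to 1 for control siRNAs against vehicle, the 1 being without vehicle C. The sample titles do not state that the letters A to D pair the mice. Deviations of mice with the same letter correlated at -0.205 to 0.302 (40 pairs, median -0.017) and those of other letters at -0.373 to 0.368 (120 pairs, median 0.012). Of 20 arrays 9 correlated best with their own letter, and these values do not settle whether the letters pair mice. With the replicate block the same 1 member, Asl, was called between the Ppara siRNAs and none of the tested members in the other comparisons.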
